A study of Mus musculus with 6 samples.

Results

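Expression of 9 genes was described in donor CD4+ T cells from mouse Peyer's patches, gut-wall lymphoid organs, after oral antigen. The genes are 5 co-inhibitory receptors (Lag3, Tigit, Btla, Cd160 and Havcr2), 3 ubiquitin ligases (Rnf128, Cblb and Itch) and 1 diacylglycerol kinase (Dgka), and were chosen by symbol among the 32285 genes of the deposited matrices. The mutant cells were OT-II T cells on a RAG-/- background carrying 1 M318R knock-in allele of Tgfbr1, the type I receptor for TGF-beta (TgfbrIWT/mut), and the WT cells were OT-II, RAG-/- cells without it. OT-II cells carry a single transgenic receptor for an ovalbumin peptide. Cells of both genotypes were purified from lymph nodes and spleen, injected into CD45.1 WT hosts that kept their own T cells, and exposed to 1.5% ovalbumin in the drinking water for 7 days. On day 8 they were sorted as CD45.2+CD45.1-CD4+CD8-TCRβ+ cells and run as 10x 3′ single-cell libraries, 2 per genotype. The ages of donors and hosts and the number of animals behind a library are not given in the sources used here. No p-value here covers more than the spread among libraries, and that spread may be technical. The WT matrices also carry 3 antibody tags and the mutant matrices do not, so that handling and genotype cannot be told apart.

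T cells that meet antigen without full co-stimulation, as with fed antigen, can enter anergy, a lasting unresponsive state. In anergic cells the E3 ligases GRAIL (encoded by Rnf128), Cbl-b and Itch mark signalling proteins with ubiquitin, and diacylglycerol kinase alpha removes the lipid messenger diacylglycerol, so that receptor signals to Ras are damped. NFAT acting without AP-1 is a known inducer of several of these genes. Co-inhibitory receptors act at the surface: LAG-3 binds MHC class II, TIGIT competes with CD226 for CD155, BTLA and CD160 share the ligand HVEM, and TIM-3 (encoded by Havcr2) marks terminally differentiated and regulatory cells. Peyer's patches are rich in T follicular helper (Tfh) cells, which help B cells and carry several of these receptors as part of their normal programme.

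After cell filters 2972 T cells were kept of 4803 barcodes, 882 and 182 in the mutant libraries (mutant 1 and mutant 2) and 1277 and 631 in the WT libraries (WT 1 and WT 2). They held 7856304 and 1705481 UMIs (unique molecular identifiers, 1 per captured transcript) in mutant 1 and mutant 2, and 12053787 and 5722624 in WT 1 and WT 2, with a median of 8638 to 9034 per cell. Cd3e, which defines T cells, was detected in 98.4% to 99.7% of the kept cells of each library. Between pairs of libraries 62 barcodes were shared, and 4 barcodes were found in kept cells of more than 1 library. The targeted gene Tgfbr1 had 27.4 and 18.2 CPM (UMIs of the gene per 1000000 UMIs) in mutant cells, against 30.9 and 25.9 CPM in WT cells, and such 3′ counts do not tell its alleles apart. Tfh-like cells made up 42.7% and 28.6% of mutant 1 and mutant 2, against 17.5% and 29.2% of WT 1 and WT 2. A cluster of shallow cells (cluster 7) made up 7.48% and 15.4% of mutant 1 and mutant 2, against 1.02% and 3.49% of WT 1 and WT 2. In bulk sums fewer cells of a type and less RNA per cell cannot be told apart.

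Promoter sequences are shown for Rnf128 and Btla, which had the smallest p-values between genotypes, and for Tigit, a receptor that separated the states, because NFAT, a driver of anergy genes, and Smad factors downstream of Tgfbr1 act at such regions. Each runs from 250 bases before to 50 bases after the start of transcription in RefSeq (GRCm38.p6), 5′ to 3′ on the gene's strand, and capitals mark the core NFAT motif GGAAA or its reverse complement TTTCC. Entries were found for 7 of the 9 members, all but Lag3 and Itch.
Rnf128 (chrX:139610370-139610669, plus strand): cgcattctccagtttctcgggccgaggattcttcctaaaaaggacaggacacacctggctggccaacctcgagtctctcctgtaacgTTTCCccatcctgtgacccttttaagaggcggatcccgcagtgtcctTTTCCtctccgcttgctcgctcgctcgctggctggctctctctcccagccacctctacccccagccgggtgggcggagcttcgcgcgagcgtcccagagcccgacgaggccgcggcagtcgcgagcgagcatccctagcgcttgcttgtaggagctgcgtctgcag
Btla (chr16:45224087-45224386, plus strand): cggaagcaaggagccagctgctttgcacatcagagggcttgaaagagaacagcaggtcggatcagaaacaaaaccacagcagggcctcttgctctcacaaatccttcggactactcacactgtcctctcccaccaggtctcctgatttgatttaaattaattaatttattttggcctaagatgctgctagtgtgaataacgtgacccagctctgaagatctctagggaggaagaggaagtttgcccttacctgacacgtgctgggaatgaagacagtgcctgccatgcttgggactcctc
Tigit (chr16:43664135-43664434, minus strand): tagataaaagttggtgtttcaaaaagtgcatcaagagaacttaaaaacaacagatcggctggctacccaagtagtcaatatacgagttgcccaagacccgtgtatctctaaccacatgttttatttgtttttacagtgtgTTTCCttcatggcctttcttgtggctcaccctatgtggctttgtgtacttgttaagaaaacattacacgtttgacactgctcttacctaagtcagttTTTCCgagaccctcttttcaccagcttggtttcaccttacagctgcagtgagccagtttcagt
The NFAT core occurred 2 times in the Rnf128 window, 2 times in that of Tigit and 0 times in that of Btla, with both strands searched, and 61.3% of 32851 mouse promoters of the same length held it. The Smad-binding core CAGAC, or GTCTG on the other strand, occurred 1 time in the Rnf128 window and 0 times in the other two, and 49.6% of all promoters held it. In the Rnf128 window the matches of the 2 motifs did not overlap, and the window lies inside the longer GENCODE gene body given next. A match is not a bound site, and these letters were compared with no expression value. The Cblb window (chr16:52031299-52031598, plus strand) held 2 NFAT cores and 1 Smad core.

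The gene bodies lie, in GENCODE M21 on GRCm38, on chromosome 6 for Lag3 (124904361 to 124911705), chromosome 16 for Tigit (43648867 to 43664146), Btla (45224315 to 45257670) and Cblb (52031225 to 52208048), and chromosome X for Rnf128 (139563316 to 139673145). Cd160 lies on chromosome 3 (96798763 to 96829351) and overlaps Pdzk1 on the opposite strand, and Dgka lies on chromosome 10 (128720134 to 128744855) and overlaps Pmel on the opposite strand. The kept T cells held 28 UMIs of Pdzk1 and 9 of Pmel, against 3806 of Cd160 and 5012 of Dgka. Itch lies on chromosome 2 (155133509 to 155226855) and Havcr2 on chromosome 11 (46454935 to 46481255).

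Levels were first compared across T cell states, which were clusters built without the 9 genes. Named states were Tfh-like (837 cells), naive or memory-like (382), recently stimulated (350), cytotoxic-like (131), gut-homing effector (93) and proliferating (90), and 4 clusters kept numbers: cluster 0 (502 cells, led by Egr3 and Angptl2), cluster 2 (401, led by Id2 and Stom), cluster 7 (129, led by Lars2 and Ahnak) and cluster 11 (57, led by Fos and Jun). Cluster 7 had a median of 3589 UMIs per cell and 7.43% mitochondrial UMIs. The levels that follow are CPM of all UMIs of a state in a library, as mean ± SD over the libraries with at least 20 cells in it. They are a description with no test, since genes that move with a member shaped the clusters.

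Lag3, which encodes the MHC class II-binding receptor, was the member seen in most cells. With each cell thinned to 3000 UMIs, 74.8% of 2885 kept cells had a Lag3 UMI (Wilson 95% interval 73.2% to 76.4%, counting error only). In the left-out cluster of epithelial and B cell character, 9.52% of 63 cells had one. T cell transcripts were present there too: Cd3 was detected in 24.8% of the cluster's 105 cells and in 56.3% of those from WT 1. WT 1 held 16 of the cluster's 34 Lag3 UMIs. The share is thus not a background level for cells that lack Lag3. Median depths before thinning were 8638 to 9034 UMIs in the kept cells of the libraries and 3931 UMIs in that cluster. Lag3 stood at 729 ± 64.7 CPM in cytotoxic-like cells (n = 3) and at 723 ± 71.3 CPM in cluster 0 (n = 4). These top levels overlapped, as did each further neighbour in the order down to naive or memory-like cells at 455 ± 27.5 CPM (n = 3). Proliferating cells lay clear below all of them at 273 ± 28.0 CPM (n = 3). The gut-homing effector cluster is led by Gzmb, Cxcr6 and Ccr9 and also by Foxp3 and Il10. Its leading genes held as many regulatory T cell markers (Foxp3, Il2ra, Capg and Il10) as gut-homing effector ones (Ccr9, Itgae, Cxcr6 and Ccr2). A Foxp3 UMI was seen in 72.0% of its 93 cells, so the name does not set it apart from regulatory T cells. It reached 20 cells in WT 1 alone, where Lag3 stood at 1415 CPM.

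Tigit, whose product competes with the co-stimulator CD226, was sparse, with 232 UMIs in all and a UMI in 2.25% of thinned cells. Its level was 17.8 ± 2.56 CPM in Tfh-like cells (n = 4), from 14.2 to 20.2 CPM over the libraries, and no other state with at least 2 libraries reached that range. Cytotoxic-like cells came next at 6.95 ± 3.25 CPM (n = 3), and naive or memory-like cells were lowest at 0.32 ± 0.55 CPM (n = 3, 2 UMIs). The gut-homing effector cluster of WT 1 stood at 41.0 CPM from 17 UMIs.

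Btla and Cd160, receptors for the shared ligand HVEM, both had their highest mean in Tfh-like cells. Cd160 stood at 226 ± 42.0 CPM there (n = 4), above recently stimulated cells (162 ± 25.7, n = 3) in 3 of the 3 libraries that hold both, although the ranges overlapped. Cd160 was lowest in cluster 7 (27.6 to 34.6 over 3 libraries) and cytotoxic-like cells (37.7 ± 25.0, n = 3). Btla stood at 139 ± 38.0 CPM in Tfh-like cells and 120 ± 31.6 CPM in cluster 0 (n = 4 each), with overlapping ranges but Tfh-like higher in each of 4 libraries. Btla was lowest in naive or memory-like cells at 52.9 ± 21.0 CPM (n = 3). In the gut-homing effector cells of WT 1, Cd160 stood at 12.1 CPM, and 0 Btla UMIs were counted in 58 cells. Within the Tfh-like class, cluster 1 held 156 ± 46.4 CPM of Btla (n = 4) and cluster 4 held 98.3 ± 11.3 CPM (n = 3).

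Havcr2, which encodes TIM-3, was close to absent at this depth. It had 5 UMIs in 4 of 2972 kept cells, 1 cell in mutant 1, 0 in mutant 2, 2 in WT 1 and 1 in WT 2. All 4 cells lay in the gut-homing effector cluster, and 3 of them also held Foxp3 UMIs. Havcr2 passed no low-count filter and was not tested in any comparison.

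Rnf128, the gene for the anergy ligase GRAIL, was also sparse, with 191 UMIs in 144 kept cells and at most 4 UMIs in a cell. Its highest level was in the shallow cluster 7 at 33.0 ± 19.3 CPM (n = 3), which rests on 13 UMIs. Tfh-like cells followed at 15.1 ± 4.87 CPM (n = 4) from 123 UMIs, and cluster 1 within them stood at 18.5 ± 6.37 CPM (n = 4). Cluster 0 had 4.06 ± 1.21 CPM and cluster 2 had 4.68 ± 2.91 CPM (n = 4 each), not distinct from each other, and cytotoxic-like cells had 0 UMIs in 131 cells. The left-out epithelial and B cell cluster had 35 UMIs, 15 of them in mutant 2, and in the libraries with at least 20 such cells it stood at 44.3 CPM (mutant 1) and 22.6 CPM (WT 2), which overlaps with cluster 7.

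Cblb and Dgka both had their highest mean in the shallow cluster 7. Cblb, the ligase that sets a T cell's need for CD28 co-stimulation, stood at 478 ± 102 CPM in cluster 7 (n = 3), clear of all others, then at 270 ± 66.7 CPM in cluster 0 (n = 4) and 229 ± 52.8 CPM in cytotoxic-like cells (n = 3). Tfh-like cells had 146 ± 17.1 CPM (n = 4) and proliferating cells 103 ± 16.2 CPM (n = 3). Dgka, the diacylglycerol kinase, stood at 339 ± 56.1 CPM in cluster 7 (n = 3) and at 282 ± 5.14 CPM in naive or memory-like cells (n = 3), which overlapped. Below them the order was clear of overlap for cluster 0 (254 ± 14.9, n = 4) against cluster 2 (203 ± 5.99, n = 4), and Tfh-like cells stood at 124 ± 8.59 CPM (n = 4). Itch, a ligase of the NEDD4 family, ranged from 52.2 ± 21.3 CPM in proliferating cells to 108 ± 14.6 CPM in cluster 7 (n = 3 each), and no neighbouring states were clear of each other.

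**Figure D1:**
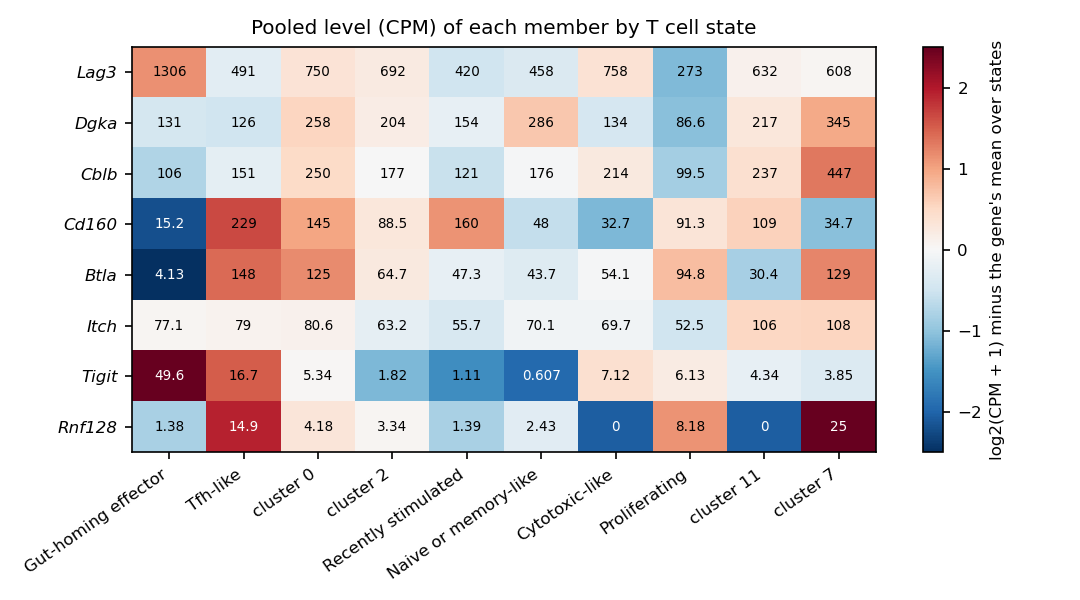
Pooled CPM of 8 members (rows; Havcr2 with 5 UMIs is not drawn) in 10 T cell states (columns), summed over the 4 libraries, with colour for log2(CPM + 1) minus the gene's mean over states. Tigit, Cd160, Btla and Rnf128 are red in Tfh-like cells, while Lag3 and Tigit are red and Btla and Cd160 dark blue in the gut-homing effector column.

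By a rule of likeness over 32 library-by-state sums of at least 20 cells, the genes most like each member were listed among 5802 genes by Pearson correlation of log2(CPM + 10). The points share libraries, depth and composition, so no p is given. Asb2 followed Tigit most closely (r = 0.836), Ptpn11, which encodes the phosphatase SHP-2, followed Btla (r = 0.832), and Pacsin1 followed Cd160 (r = 0.710). Usp34 followed Cblb (r = 0.911), Notch1 followed Dgka (r = 0.895), Heatr5a followed Rnf128 (r = 0.830), Gm47664 followed Itch (r = 0.878) and Nucb1 followed Lag3 (r = 0.732).

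The states were then set apart through 1 gene at a time that is no member, by comparing cells with at least 1 UMI of Cxcr5, Ccr7 or Foxp3 with the cells that had none, within each library. Cxcr5 encodes the receptor that takes Tfh cells to the follicle, Ccr7 the lymph node homing receptor of naive and central memory cells, and Foxp3 the regulatory T cell factor. UMIs were summed per library and side, and edgeR's quasi-likelihood test was run with library as a block and Benjamini-Hochberg adjustment over all genes (called at adjusted p below 0.05). CPM from here on are scaled by TMM, edgeR's correction for library composition.

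In cells with a Cxcr5 UMI the HVEM receptors and Tigit rose, and Lag3, Cblb and Dgka fell. Of 8 members tested 3 rose and 3 fell, where 7.88% of 9765 genes rose and 7.53% fell, 15.4% in all. Among all genes 17.3% were higher and 16.9% lower in every library. Cd160 had 185, 164, 175 and 189 CPM in Cxcr5-positive cells of mutant 1, mutant 2, WT 1 and WT 2, against 113, 56.7, 115 and 117 CPM in the rest. The groups did not overlap, and the log2 difference was 0.74 ± 0.08 (SE, n = 4 libraries, edgeR adjusted p = 3.34e-07).

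Tigit had 13.7, 13.5, 13.0 and 12.8 CPM in Cxcr5-positive cells of mutant 1, mutant 2, WT 1 and WT 2, against 8.63, 8.10, 3.64 and 3.69 CPM in the rest. All Cxcr5-positive values lay above all of the rest (log2 difference 1.30 ± 0.24, edgeR adjusted p = 0.000443). Btla was higher in 4 of 4 libraries (log2 difference 0.33 ± 0.08, edgeR adjusted p = 0.00572), but its groups overlapped. That call was lost with DESeq2 (adjusted p = 0.0747) and without WT 1 (edgeR adjusted p = 0.105).

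Dgka had 137, 140, 163 and 155 CPM in Cxcr5-positive cells of mutant 1, mutant 2, WT 1 and WT 2, against 224, 228, 212 and 197 CPM in the rest, which did not overlap (log2 difference -0.51 ± 0.07, edgeR adjusted p = 8.88e-06). The log2 difference of Cblb was -0.33 ± 0.06 (edgeR adjusted p = 0.00087) and that of Lag3 -0.26 ± 0.05 (edgeR adjusted p = 0.000777), each lower in 4 of 4 libraries. Rnf128 (0.36 ± 0.25, edgeR adjusted p = 0.381) and Itch (-0.10 ± 0.08, edgeR adjusted p = 0.479) did not pass. Cxcr5-positive cells were the deeper ones, with medians of 9503, 11106, 9498 and 9210 UMIs in mutant 1, mutant 2, WT 1 and WT 2, against 7967, 7952, 8495 and 8243 UMIs in the rest, and the part of depth was not tested.

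In cells with a Ccr7 UMI Dgka and Cblb rose, and Tigit, Btla, Cd160 and Rnf128 fell. Of 8 members 2 rose and 4 fell, where 7.26% of 9410 genes rose and 7.08% fell, 14.3% in all. Among all genes 15.9% were higher and 16.6% lower in every library. Tigit had 1.84, 0, 3.07 and 0 CPM in Ccr7-positive cells of mutant 1, mutant 2, WT 1 and WT 2, against 12.4, 14.2, 9.09 and 10.1 CPM in the rest (log2 difference -2.36 ± 0.39, edgeR adjusted p = 6.72e-05). The Ccr7-positive values, from 2, 0, 13 and 0 UMIs in the same order, lay below all of the rest. Without WT 1 the difference was -4.05, with the 2 UMIs of mutant 1 the only ones left on the Ccr7-positive side.

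Rnf128 had 5.51, 4.504, 1.42 and 3.26 CPM in Ccr7-positive cells of mutant 1, mutant 2, WT 1 and WT 2, against 13.3, 12.7, 4.48 and 7.07 CPM in the rest. It was lower in 4 of 4 libraries (log2 difference -1.37 ± 0.33, edgeR adjusted p = 0.00383), though the groups overlapped and DESeq2 did not call it (adjusted p = 0.0696). The log2 difference of Cd160 was -0.79 ± 0.10 (edgeR adjusted p = 5.93e-07) and that of Btla -0.67 ± 0.10 (edgeR adjusted p = 1.06e-05), each lower in 4 of 4 libraries.

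Dgka rose in Ccr7-positive cells, with 264, 246, 231 and 237 CPM there in mutant 1, mutant 2, WT 1 and WT 2, against 163, 159, 168 and 154 CPM in the rest. These groups lay far apart (log2 difference 0.59 ± 0.07, edgeR adjusted p = 8.71e-07). Cblb rose by 0.25 ± 0.08 (edgeR adjusted p = 0.0407), a call that was lost in 6 of 8 alternatives, with a log2 difference of 0.15 and an edgeR adjusted p of 0.451 without WT 2. Lag3 (0.06 ± 0.07, edgeR adjusted p = 0.690) and Itch (-0.00 ± 0.10, edgeR adjusted p = 0.998) did not pass.

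Cells with a Foxp3 UMI could be compared in 3 libraries, with 15 such cells in mutant 1, 117 in WT 1 and 27 in WT 2, while mutant 2 had 2 and was left out. Of 8 members 2 rose and 2 fell, where 1.9% of 9688 genes rose and 1.1% fell, 3% in all. Among all genes 14.5% were higher and 21.6% lower in every library. Tigit had 51.6, 18.3 and 22.9 CPM in Foxp3-positive cells of mutant 1, WT 1 and WT 2, from 8, 20 and 6 UMIs, against 10.3, 5.98 and 6.83 CPM in the rest (log2 difference 1.85 ± 0.41, edgeR adjusted p = 0.0148). Lag3 had 1245, 716 and 697 CPM in Foxp3-positive cells, against 585, 581 and 538 CPM in the rest (0.57 ± 0.14, edgeR adjusted p = 0.0268). For both genes the groups did not overlap.

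Both calls were lost on leaving out mutant 1, which gave an edgeR adjusted p of 0.06 for Tigit and 0.118 for Lag3, whose log2 difference was then 0.33. Tigit was also lost without WT 1 (edgeR adjusted p = 0.0815), and Lag3 with DESeq2 (adjusted p = 0.159). The Lag3 direction turned outside the gut-homing effector cluster, a split chosen after its values were seen. There Lag3 stood at 433 and 497 CPM (not TMM-scaled) in Foxp3-positive cells of WT 1 and WT 2, against 560 and 535 CPM in Foxp3-negative cells. Tigit turned there in WT 2 and not in WT 1. It stood at 9.89 and 6.14 CPM in Foxp3-positive cells of WT 1 and WT 2, from 8 and 1 UMIs, against 5.45 and 6.83 CPM. Of the 15 gated cells of mutant 1, 13 lay in that cluster. These are sums with no test.

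Btla had 25.8, 34.7 and 38.1 CPM in Foxp3-positive cells of mutant 1, WT 1 and WT 2, against 156, 62.9 and 96.1 CPM in the rest (-1.27 ± 0.24, edgeR adjusted p = 0.00388). Cd160 had 6.45, 88.5 and 34.3 CPM in Foxp3-positive cells, against 152, 143 and 154 CPM in the rest (-1.32 ± 0.28, edgeR adjusted p = 0.00892). Without WT 1 the Cd160 difference was -2.71 on the log2 scale.

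Rnf128 had 1 UMI in all Foxp3-positive cells of these libraries and did not pass (-2.93 ± 1.10, edgeR adjusted p = 0.241). Cblb (-0.42 ± 0.20, edgeR adjusted p = 0.458), Dgka (-0.21 ± 0.17, edgeR adjusted p = 0.806) and Itch (0.02 ± 0.19, edgeR adjusted p = 0.999) did not pass either.

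**Figure D2:**
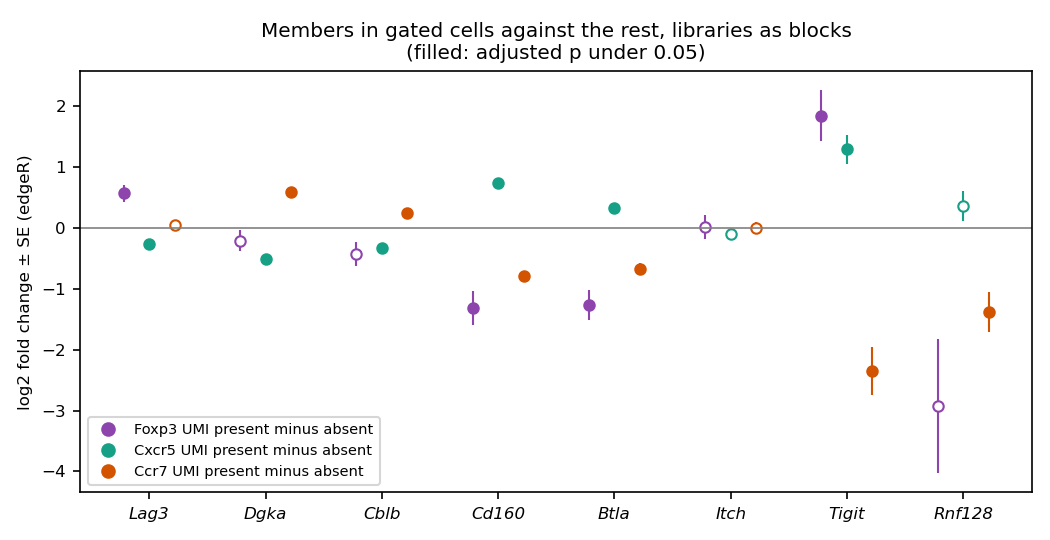
Log2 fold change (± SE, edgeR, libraries as blocks) of 8 members in cells with a Foxp3, Cxcr5 or Ccr7 UMI against cells with none; filled points have an adjusted p below 0.05. Tigit is positive for Foxp3 and Cxcr5 and at -2.36 for Ccr7, and Dgka is negative for Cxcr5 and positive for Ccr7.

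Of 63 further genes of these pathways, 55 were tested in Cxcr5-positive cells, where 12 rose and 13 fell (median log2 difference -0.06 over the 55 and -0.00 over all genes). Among the other inhibitory receptors Pdcd1, which encodes PD-1, rose by 1.28 ± 0.07 (edgeR adjusted p = 1.21e-11) and Ctla4 rose by 0.50 ± 0.06 (edgeR adjusted p = 2.93e-06), with Cd5, Cd6 and Cd96 falling. Tox2, a Tfh and exhaustion factor, rose by 1.73 ± 0.12 (edgeR adjusted p = 2.83e-10). Egr3 (-0.97 ± 0.09, edgeR adjusted p = 3.15e-08) and Nr4a1 (-0.90 ± 0.11, edgeR adjusted p = 1.38e-06), both induced by NFAT signalling, fell, as did Izumo1r, the anergy mark FR4 (-0.51 ± 0.06, edgeR adjusted p = 2.49e-06). Of the genes listed with the ligases, adaptors and diacylglycerol enzymes 1 of 20 rose (Ndfip1, an adaptor of Itch) and 4 fell (Cbl, Peli1, Dtx1 and Rasgrp1). Rasgrp1 is itself neither a ligase nor a diacylglycerol enzyme.

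In Ccr7-positive cells 10 of 53 such genes rose and 14 fell (median -0.06, all genes 0.00). Pdcd1 fell by 2.16 ± 0.12 (edgeR adjusted p = 8.45e-13), Tox2 by 3.13 ± 0.17 (edgeR adjusted p = 2.02e-13) and Ctla4 by 0.96 ± 0.09 (edgeR adjusted p = 3.94e-09) on the log2 scale. Cd226, the co-stimulator that competes with Tigit, rose by 1.54 ± 0.18 (edgeR adjusted p = 4.62e-07), and it fell in Cxcr5-positive cells by 1.17 ± 0.16 (edgeR adjusted p = 9.66e-06). In Foxp3-positive cells 6 of 54 rose and 8 fell (median -0.06, all genes -0.03). Ctla4 rose there by 1.695 ± 0.12 (edgeR adjusted p = 5.68e-08), Prdm1, which encodes Blimp-1, by 5.00 ± 0.40 (edgeR adjusted p = 1.72e-07) and Nt5e, which encodes CD73, by 1.33 ± 0.14 (edgeR adjusted p = 6.31e-06), while Pdcd1 fell by 1.36 ± 0.23 (edgeR adjusted p = 0.00101).

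The comparison of mutant with WT cells, which asks how a T cell's own TGF-beta receptor bears on its state after fed antigen, was made on sums per library with edgeR's quasi-likelihood test (n = 2 each). Over all kept T cells Rnf128 was the 1 member of 8 tested that changed, and it rose. Of 10727 genes 173 changed (1.61%), and 1.02% rose. An exact permutation test of 2 against 2 libraries has a smallest two-sided p of 1 in 3, so none is given.

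Rnf128 had 12.4 and 10.8 CPM in mutant cells, from 96 and 19 UMIs, against 3.47 and 6.15 CPM in WT cells, from 41 and 35 UMIs. Both mutant libraries lay above both WT libraries. The difference was 1.39 ± 0.30 on the log2 scale, 2.63-fold (edgeR adjusted p = 0.0260). The share of cells with an Rnf128 UMI after thinning was 3.54% and 3.13% in mutant 1 and mutant 2, against 0.712% and 1.31% in WT 1 and WT 2. In the left-out cluster it was 1.59%, which is 1 of 63 cells, 32 of them from WT 2. Another 42 cells of that cluster were below 3000 UMIs. Its mutant cells had medians of 2069.5 and 2238 UMIs before thinning, so this share says little of them. The call was lost with DESeq2 (adjusted p = 0.287), with no TMM scaling (edgeR adjusted p = 0.0722) and with called doublets kept (edgeR adjusted p = 0.0518). It was lost too on leaving out mutant 1 (edgeR adjusted p = 0.201) or WT 1 (log2 difference 0.94, edgeR adjusted p = 0.816).

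Equal state shares could be set over the 6 clusters that each library holds with at least 10 cells, which leaves out the recently stimulated, cytotoxic-like, gut-homing effector and proliferating cells and cluster 11. The Rnf128 difference was then 0.65 (edgeR adjusted p = 0.514), and in the same 6 clusters with no weighting it was 1.11 (edgeR adjusted p = 0.0769). Without the shallow cluster 7 it was 1.42 (edgeR adjusted p = 0.0393). The unweighted sum and the removal of cluster 7 were chosen after seeing the data. Because Rnf128 was also found in the left-out cluster, epithelial markers were set beside it: the 13 of them summed to 16.6 and 21.7 CPM in mutant cells and to 10.2 and 15.4 CPM in WT cells. Of the 13, 1 was at 0 in mutant 1 (Krt20), and 4 were at 0 in each of mutant 2, WT 1 and WT 2, with Vil1 and Cldn7 among them in all 3. In the kept cells with no UMI of these markers, Rnf128 stood at 13.5 and 10.7 CPM in mutant cells against 3.42 and 6.92 CPM in WT cells, again without overlap. In the kept cells with at least 1 such UMI it stood at 3.19 and 13.5 CPM in mutant cells, against 3.22 and 0 CPM in WT cells, from 3, 4, 3 and 0 UMIs, and there the groups overlapped. The cells with no marker UMI held 93 of 96, 15 of 19, 38 of 41 and 35 of 35 Rnf128 UMIs of mutant 1, mutant 2, WT 1 and WT 2. Their values thus nearly repeat those of all kept cells, and the part of epithelial RNA was not tested.

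Btla had the next smallest p among the members and did not pass. It had 153 and 94.7 CPM in mutant cells, against 60.1 and 93.3 CPM in WT cells. The groups did not overlap, although mutant 2 and WT 2 were close (log2 difference 0.76 ± 0.20, edgeR adjusted p = 0.0768). It passed on leaving out WT 2 (1.08, edgeR adjusted p = 0.00027) or mutant 2 (1.02, edgeR adjusted p = 0.00536), with no low-count filter (edgeR adjusted p = 0.000199) and with a replicate block (edgeR adjusted p = 0.0116), and not without WT 1 (0.44) or mutant 1 (0.31).

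Cblb had 212 and 197 CPM in mutant cells, against 152 and 178 CPM in WT cells (0.32 ± 0.13, edgeR adjusted p = 0.307). Tigit had 11.1 and 10.8 CPM in mutant cells, against 7.10 and 7.56 CPM in WT cells (0.60 ± 0.25, edgeR adjusted p = 0.305). Itch had 81.7 and 83.3 CPM in mutant cells, against 66.7 and 71.9 CPM in WT cells (0.25 ± 0.13, edgeR adjusted p = 0.468). In these 3 genes the libraries of the groups did not overlap. Of all genes tested 46.1% did not overlap, and in 23.2% both mutant values were the higher ones.

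Lag3 had 597 and 505 CPM in mutant cells, against 592 and 544 CPM in WT cells (-0.04 ± 0.14, edgeR adjusted p = 0.931). Cd160 had 149 and 110 CPM in mutant cells, against 137 and 148 CPM in WT cells (-0.11 ± 0.14, edgeR adjusted p = 0.805). Dgka had 179 and 182 CPM in mutant cells, against 194 and 179 CPM in WT cells (-0.05 ± 0.13, edgeR adjusted p = 0.908). In each of these the groups overlapped. The median log2 difference over the 8 members was 0.29, against -0.00 over all genes. Within states that median was 0.03 over 8 members in Tfh-like cells and 0.19 over 8 in their cluster 1. In cluster 0 it was 0.24 and in cluster 2 it was 0.21, over 6 members each.

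**Figure D3:**
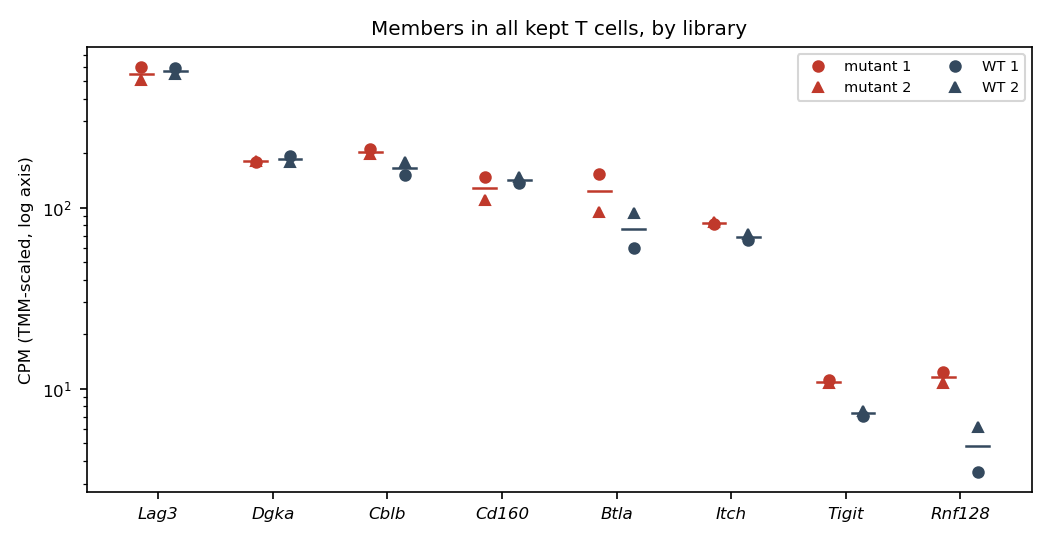
TMM-scaled CPM (log axis) of 8 members in all kept T cells, 1 point per library and a bar at the mean of each genotype. The Rnf128 points of the mutant libraries (12.4 and 10.8) lie above those of WT (3.47 and 6.15), while Lag3, Dgka and Cd160 overlap.

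Of the 63 further pathway genes, 55 were tested over all kept T cells, 2 rose and 1 fell (median 0.08). Lgals3, which encodes the LAG-3 ligand galectin-3 and is also high in epithelium, had 6.73 and 13.6 CPM in mutant cells, against 2.28 and 2.11 CPM in WT cells (2.00 ± 0.40, edgeR adjusted p = 0.0171). Its difference was -3.23 with equal state shares and -2.33 in those 6 clusters with no weighting (edgeR adjusted p = 0.112). Tox2 rose by 0.95 ± 0.19 (edgeR adjusted p = 0.0177), with 107 and 72.0 CPM in mutant cells against 39.1 and 58.5 CPM in WT cells, and stood at 0.23 with equal state shares and 0.68 in the 6 clusters unweighted. Nr4a1 fell, with 41.8 and 34.0 CPM in mutant cells against 89.5 and 59.1 CPM in WT cells (-0.94 ± 0.19, edgeR adjusted p = 0.0164), and stood at -0.33 with equal state shares and -0.27 in the 6 clusters unweighted.

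The Tox2 call was lost on leaving out WT 1 (edgeR adjusted p = 0.45) or mutant 1 (edgeR adjusted p = 0.203), and so was that of Nr4a1 (edgeR adjusted p = 0.628 and 0.0704). Pdcd1 had 249 and 215 CPM in mutant cells against 167 and 230 CPM in WT cells, and Ctla4 had 324 and 218 CPM in mutant cells against 200 and 191 CPM in WT cells, and neither passed. The gate genes Foxp3 and Ccr7 also fell in mutant cells, by 2.00 ± 0.36 (edgeR adjusted p = 0.00681) and by 1.01 ± 0.18 (edgeR adjusted p = 0.00641) on the log2 scale. Both falls lost their call on leaving out WT 1 (edgeR adjusted p = 0.111 for Foxp3 and 0.198 for Ccr7) or mutant 1 (0.0631 and 0.0995). The Foxp3 call was lost with DESeq2 too (adjusted p = 0.537), and Ccr7 stood at -0.12 with equal state shares (edgeR adjusted p = 0.873). Recently stimulated cells, which are named by Nr4a1 among others, made up 3.06% and 4.40% of mutant 1 and mutant 2, against 19.6% and 10.3% of WT 1 and WT 2.

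Within single states, which holds the mix of cells more nearly fixed, 0 members passed in edgeR. In Tfh-like cells 31 of 9076 genes changed (0.342%), in cluster 0 4 of 7861 (0.0509%) and in cluster 2 13 of 6761 (0.192%). Of the members tested 4 of 8 had an unadjusted p below 0.05 in Tfh-like cells, 2 of 6 in cluster 0 and 2 of 6 in cluster 2, where 8.29%, 4.66% and 7.54% of all genes tested had one, and DESeq2 called 0 members in each. In cluster 1 alone, the larger piece of the Tfh-like class, 2 of 7816 genes changed (0.0256%) and 0 of 8 members did, with 3 at an unadjusted p below 0.05 (6.70% of all genes) and 0 by DESeq2.

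In Tfh-like cells Rnf128 had 19.2 and 20.1 CPM in mutant cells, against 10.5 and 11.4 CPM in WT cells, which did not overlap (0.83 ± 0.30, edgeR adjusted p = 0.391). Btla had 198 and 137 CPM in mutant Tfh-like cells, against 96.5 and 132 CPM in WT Tfh-like cells, a narrow gap (0.64 ± 0.17, edgeR adjusted p = 0.161). It passed without mutant 2 (0.81, edgeR adjusted p = 8.95e-07), without WT 2 (0.85, edgeR adjusted p = 0.0499) and with no low-count filter (edgeR adjusted p = 0.0174), and not without mutant 1 (0.27, edgeR adjusted p = 0.685) or WT 1 (0.39, edgeR adjusted p = 0.999).

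Cd160, the other HVEM receptor, lay the other way, with 209 and 181 CPM in mutant Tfh-like cells, against 269 and 252 CPM in WT Tfh-like cells (-0.39 ± 0.14, edgeR adjusted p = 0.360). Its groups did not overlap. The difference stayed negative in all 10 alternatives, between -0.54 and -0.32. These reuse the same libraries, and the difference passed in 0 of them. Cd160 stood at -0.10 ± 0.21 in cluster 0 (edgeR adjusted p = 0.996) and at -0.12 ± 0.25 in cluster 2 (edgeR adjusted p = 0.952). In both clusters its groups overlapped. Cblb had 179 and 142 CPM in mutant Tfh-like cells, against 133 and 135 CPM in WT Tfh-like cells (0.31 ± 0.14, edgeR adjusted p = 0.575). Tigit, Lag3, Dgka and Itch had log2 differences between -0.19 and 0.13, none past the threshold. Of all genes tested 37.5% did not overlap between genotypes in Tfh-like cells, 18.9% with mutant higher and 18.6% with mutant lower.

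In cluster 0, Rnf128, Tigit and Havcr2 were too rare to be tested. Cblb had 294 and 352 CPM in mutant cells of cluster 0, against 195 and 249 CPM in WT cells (0.52 ± 0.18, edgeR adjusted p = 0.753), without overlap, which held for 35.1% of all genes. Btla had 171 and 109 CPM in mutant cells of cluster 0, against 95.4 and 110 CPM in WT cells, which overlapped (0.58 ± 0.21, edgeR adjusted p = 0.794). In cluster 2 Cblb stood at 0.42 ± 0.17 (edgeR adjusted p = 0.549), Btla at 0.50 ± 0.25 (edgeR adjusted p = 0.658) and Itch at 0.50 ± 0.24 (edgeR adjusted p = 0.655), and of these Itch was without overlap, which held for 39.2% of all genes. Of the 48, 47 and 41 further pathway genes tested in Tfh-like cells, cluster 0 and cluster 2, 0 changed in edgeR, with 12, 9 and 6 at an unadjusted p below 0.05, which held for 8.29%, 4.66% and 7.54% of all genes.

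An interaction term, in a fit that blocked on library, asked if the genotype difference was unlike in Tfh-like cells and in cluster 0. Of 9076 genes 1 passed (0.011%), and 0 of 8 members did, with 0 at an unadjusted p below 0.05 (4.11% of all genes). The estimates, Tfh-like minus cluster 0, were 0.18 ± 0.83 for Rnf128, 0.11 ± 0.20 for Btla, -0.29 ± 0.19 for Cd160 and -0.17 ± 0.18 for Cblb (edgeR adjusted p = 1 for each). The standard errors leave room for differences in either direction.

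**Figure D4:**
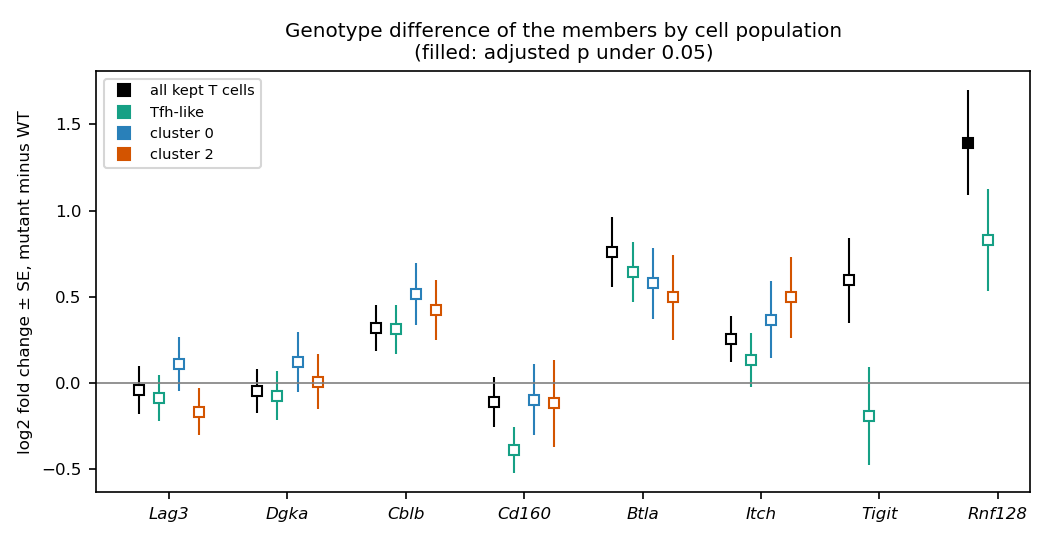
Log2 fold change (± SE, edgeR) of mutant minus WT for 8 members in all kept T cells, Tfh-like cells, cluster 0 and cluster 2; filled squares have an adjusted p below 0.05. Rnf128 in all kept T cells (1.39) is the filled square, and the Btla estimates are positive in each of the 4 populations drawn, from 0.50 to 0.76. The populations share libraries, and all kept T cells contain the others, so these estimates are not independent. Btla in mutant 2 lay below WT 2 in cluster 0 (108.7 against 109.8 CPM) and in cluster 2 (58.3 against 69.8 CPM).

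**Figure D5:**
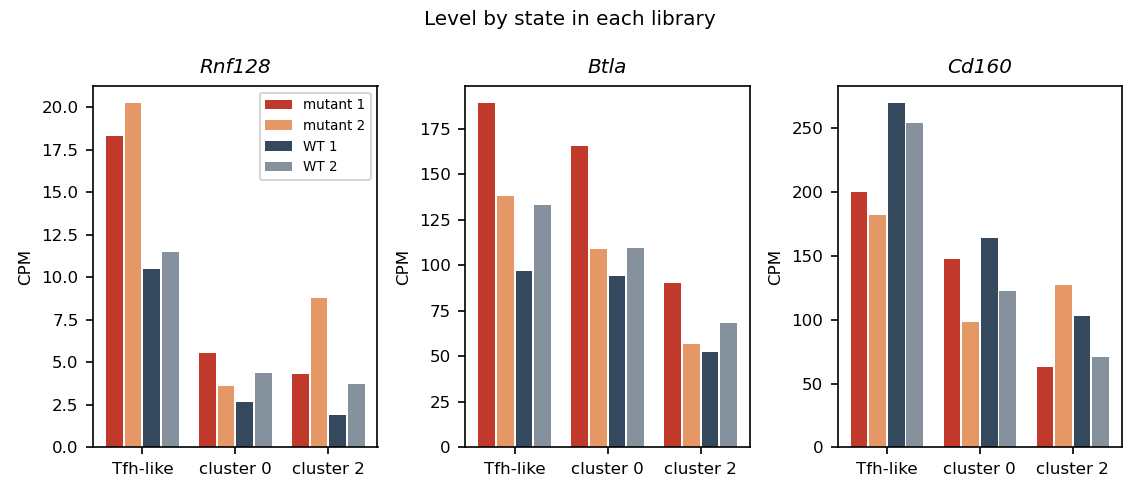
CPM (not TMM-scaled) of Rnf128, Btla and Cd160 in Tfh-like cells, cluster 0 and cluster 2, 1 bar per library. In Tfh-like cells both mutant bars of Rnf128 (18.3 and 20.2) stand above both WT bars (10.5 and 11.5), and those of Cd160 (200 and 182) stand below (270 and 254).

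At the level of cells, it was counted how many of Lag3, Tigit, Btla and Cd160 had a UMI after thinning to 3000 UMIs. Havcr2 was left out of this count. None of these receptors was seen in 11.9% and 13.1% of cells of mutant 1 and mutant 2, against 15.9% and 13.9% of WT 1 and WT 2. Exactly 2 were seen in 33.4% and 22.5% of cells of mutant 1 and mutant 2, against 22.4% and 25.9% of WT 1 and WT 2, so the genotypes overlapped. At least 3 receptors were rare in each library, and 3 were seen in 8.37% and 5.00% of cells of mutant 1 and mutant 2, against 3.80% and 7.50% of WT 1 and WT 2.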

How the data were processed

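The authors deposited raw UMI counts for each gene in each barcode. The submitters' processing notes name Cell Ranger 6.0.0, Seurat 4 and the build mm10. The members and gene lists were chosen with earlier results of these data known. Of 4803 barcodes, 3108 had 500 genes or more and no more than 10% of UMIs from mitochondria, 31 Scrublet doublets (scanpy 1.11.5) were left out, and Leiden clusters (leidenalg 0.10.2, resolution 0.8) were built on variable genes without the members. A cluster took a type's name from at least 3 of its markers among 50 leading genes, and 1 cluster of 105 cells (epithelial and B markers) was left out. Other names could shift the states.

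Sums of counts per library entered the quasi-likelihood test of edgeR 4.0.16 (R 4.3.3, filterByExpr, TMM, Benjamini-Hochberg at 0.05), mutant minus WT or gated minus rest; DESeq2 1.42.0 was an alternative. The SE is the log2 change over the root of F. States needed 20 cells in every library, gates 10 cells on both sides. The script was tested on simulated counts. Replicate libraries differed by more than sampling noise (chi-square per degree of freedom 5.19 in mutant and 7.65 in WT). Named genes were the members and, of 63 fixed pathway genes, up to 15 called with the smallest p per comparison, plus Pdcd1 and Ctla4. Likeness used genes of at least 20 CPM. The 2 WT hashtag samples and the 3 antibody tags were not analysed here.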

Additional observations from a re-analysis of the deposited data

Results flagged for a closer look

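Members were also counted in the cluster of 105 cells that was left out of the comparisons for its epithelial and B cell markers, where 24.8% of cells had a Cd3 UMI. Summed over the 4 libraries, it held 35 UMIs of Rnf128, 48 of Itch, 39 of Btla, 34 of Lag3, 28 of Cblb, 23 of Dgka and 13 of Cd160, each above the 3 counts taken as the floor. Rnf128 stood at 41.9 CPM over the pooled cells, and its level in them was 44.3 and 144 CPM in mutant 1 and mutant 2, against 0 and 22.6 CPM in WT 1 and WT 2. The 13 epithelial markers summed to 12640 and 75240 CPM in these cells of mutant 1 and mutant 2, against 47.1 and 5176 CPM in those of WT 1 and WT 2. A Cd3 UMI was seen in 23.7% and 15.4% of them in mutant 1 and mutant 2, against 56.3% and 15.8% in WT 1 and WT 2, and the part of these differences was not tested. Itch (57.4 CPM) and Btla (46.7 CPM) were near the lower end of the T cell states, and Lag3 (40.7 CPM), Cblb (33.5 CPM), Dgka (27.5 CPM) and Cd160 (15.6 CPM) below the means of the T cell states with at least 2 libraries. No Tigit UMI was counted, which allows up to 3 counts.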

How the results depend on the processing

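Of 173 genes past the threshold between genotypes over all kept T cells, other choices gave 63 with DESeq2, 412 with no low-count filter, 66 with no TMM, 96 with called doublets kept, 55 with equal state shares, 86 in the same 6 clusters with no weighting (chosen after seeing the data) and 46 to 301 on leaving out 1 library. The 1 member past it became 0 with DESeq2, no TMM, doublets kept, equal state shares and those 6 clusters unweighted, 2 with no filter, and 0 to 2 on leaving out 1 library. The deviations of same-numbered libraries had r = 0.0165. With 2 libraries per genotype this is only 1 value, which cannot settle if the numbers pair them. A replicate block gave 332 genes and 2 members over all kept T cells, 0 genes in Tfh-like cells, 9 in cluster 0, 30 in cluster 2 and 1 in cluster 1. DESeq2 gave 1, 0, 1 and 1 genes in Tfh-like cells, cluster 0, cluster 2 and cluster 1, and no filter gave 109, 17, 20 and 36, with 1 member (Btla) in Tfh-like cells. Leaving out 1 library gave 21 to 220 genes in Tfh-like cells, 2 to 20 in cluster 0, 0 to 76 in cluster 2 and 0 to 137 in cluster 1, with 0 to 1 members in Tfh-like cells and 0 to 2 in cluster 1. The interaction gave 11 genes with no filter and 6 to 16 on leaving out 1 library. The Foxp3 comparison gave 481 genes with no filter and 500 with at least 2 UMIs in the gate, and 2 to 4 members on leaving out 1 library. DESeq2 gave 701 genes for Cxcr5 and 772 for Ccr7, and leaving out 1 library gave 801 to 1577 and 878 to 1324.

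Signs turned for differences that had not passed, except Lgals3. Equal state shares over all kept T cells gave log2 differences of -0.063 for Tigit, 0.054 for Dgka, -3.23 for Lgals3 (-2.33 unweighted) and -0.28 for Pdcd1. Leaving out 1 library there gave -0.19 to 0.068 for Lag3, -0.39 to 0.061 for Cd160 and -0.10 to 0.0088 for Dgka. In Tfh-like cells Dgka stood at 0.016 with Leiden resolution 0.5 and 0.078 with members kept for clustering, and leaving out 1 library gave -0.29 to 0.13 for Tigit and -0.13 to 0.046 for Pdcd1. In cluster 0 it gave -0.12 to 0.26 for Lag3, -0.59 to 0.12 for Cd160, -0.0044 to 0.18 for Dgka and -0.45 to 0.30 for Ctla4. In cluster 2 it gave -0.052 to 0.66 for Btla, -0.48 to 0.48 for Cd160, -0.087 to 0.60 for Cblb and -0.075 to 0.036 for Dgka, with Cd160 at 0.054 by DESeq2 and Dgka at -0.041 with no filter. In cluster 1 it gave -0.51 to 0.056 for Lag3, -0.090 to 0.31 for Dgka and -0.24 to 0.37 for Ctla4. For the interaction it gave -0.84 to 0.72 for Tigit, -0.029 to 0.23 for Btla, -0.48 to 0.079 for Cd160 and -0.074 to 0.81 for Rnf128. Itch stood at -0.034 in the Foxp3 comparison with no filter and at -0.10 to 0.091 on leaving out 1 library. For Ccr7, Itch stood at 0.016 with DESeq2, 0.020 with at least 2 UMIs and -0.048 to 0.036 on leaving out 1 library, and Lag3 at -0.053 with at least 2 UMIs and -0.029 to 0.18 on leaving out 1 library. The cause was not tested in any of these. Depth limits Tigit (232 UMIs), Rnf128 (191) and Havcr2 (5) most. A lone library left in a group was assumed to vary like the others.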

Other observations

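The 93 gut-homing effector cells held 41.6% of the cells with a Foxp3 UMI, and the split of the Foxp3 gate by this cluster was looked at after the values were seen. Inside the cluster Lag3 stood at 1341 CPM in 67 cells with a Foxp3 UMI and at 1194 CPM in 26 cells with none. Outside it Lag3 stood at 456 CPM in 94 cells with a Foxp3 UMI and at 554 CPM in 2785 cells with none. Tigit stood at 49.1 and 51.2 CPM inside the cluster, with and without a Foxp3 UMI, from 27 and 9 UMIs. Outside it Tigit stood at 9.02 and 7.30 CPM, from 9 and 187 UMIs, and in WT 2 alone the order was turned (6.14 and 6.83 CPM). Btla had 3 UMIs in the 67 Foxp3-positive cells of the cluster and 0 in the 26 others. Outside it Foxp3-positive cells stood at 49.1 CPM of Btla and Foxp3-negative ones at 99.2 CPM. These pools differ in their libraries: 77 of the 94 Foxp3-positive cells came from WT 1, and the Foxp3-negative pool holds 863 cells of mutant 1 at 153 CPM. Within WT 1 the Btla levels were 47.0 and 62.1 CPM, and within WT 2 they were 49.1 and 96.2 CPM. All of these are sums with no test, and Foxp3 was among the genes that led the cluster. The cluster held 17 and 2 cells of mutant 1 and mutant 2, against 58 and 16 cells of WT 1 and WT 2.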
